A study of Mus musculus with 8 samples.

Results

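The UDP-glucuronosyltransferases followed here are the products of 10 mouse genes, Ugt2b1, Ugt2b5, Ugt2b34, Ugt2b35, Ugt2b36, Ugt2b37, Ugt2b38, Ugt2a3, Ugt3a1 and Ugt3a2. Their probes were taken by the gene name or transcript accession that the array files give, without use of any signal, and they are 10 of the 21232 genes named on the array. They had 21 of its 149782 non-control probes, at least 2 for each gene. Of the 21 probes, 11 are catalogue designs of the manufacturer and 10 are custom designs, and all 21 passed the filter on dim spots.

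RNA came from whole livers of male mice on 8 one-colour Agilent arrays, 1 array per mouse. The 4 arrays labelled oxaliplatin are from mice given this platinum drug by intraperitoneal injection, weekly for 6 weeks, to model sinusoidal obstruction syndrome of the liver. The 4 arrays labelled control are from mice described as normal, and neither a vehicle, a strain nor an age is given for either group in the sources used here. The labels call the mice biological replicates.

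UDP-glucuronosyltransferases sit in the membrane of the endoplasmic reticulum and join a sugar from a UDP-sugar donor to small fatty molecules, which makes them water-soluble and ready for excretion in bile or urine. The Ugt2 enzymes use UDP-glucuronic acid and act on steroid hormones, bile acids and many drugs. The Ugt3 enzymes are known, from human, to prefer other UDP-sugars such as UDP-N-acetylglucosamine or UDP-glucose. Liver is a main site of these enzymes, and in mouse liver Ugt2b1 and Ugt2b38 are known for higher expression in males than in females.

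The 8 genes of the Ugt2 family lie in a row on mouse chromosome 5, in the order Ugt2b34, Ugt2b1, Ugt2b35, Ugt2b36, Ugt2b5, Ugt2b37, Ugt2a3 and Ugt2b38, and Ugt3a1 and Ugt3a2 are neighbours on chromosome 15. On build mm9, per the array files, the catalogue probes run from chr5:87319553-87319612 for Ugt2b34 to chr5:87850627-87850686 for Ugt2b38, all on the minus strand but that of Ugt2b35. The catalogue probe of Ugt2b1 is at chr5:87346310-87346369. That of Ugt3a1 is at chr15:9244274-9244333, on the plus strand. The 60 bases of the Ugt2b36 probe are spread over 14459 bases of the genome, and those of 1 Ugt3a2 probe over 10293 bases, so both are split between exons. No genome position is given in the files for the 10 custom probes.

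These genes are close relatives, so the probe letters bear on what each signal can separate. Of the 21 probes, 2 are listed in the files for more than 1 gene. The first is the catalogue probe placed at Ugt2b38, listed for Ugt2b37, Ugt2b38 and Ugt2b5, and the second is the catalogue probe of Ugt2b36, listed also for Ugt2b37. Both are shown with the first 30 bases of the custom probe of Ugt2b38, the one whose signal differed most between the groups, all 5′ to 3′ as the files give them.
Ugt2b38, custom probe: ggcagatcttctttggaaatttttactgtg
Ugt2b38, catalogue probe listed for 3 genes: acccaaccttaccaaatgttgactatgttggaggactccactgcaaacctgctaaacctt
Ugt2b36, catalogue probe listed for 2 genes: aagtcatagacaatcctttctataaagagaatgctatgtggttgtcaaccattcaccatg

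The custom probes of Ugt2b5 and Ugt2b37 start with nearly the same letters, and only this first part was compared base by base. The longest run that the whole probes share is 18 bases. Over their first 30 bases 27 were identical, and the 3 that differ are in capitals.
Ugt2b5, custom probe: gaaCAaactttcagcctcattctTatttat
Ugt2b37, custom probe: gaaTGaactttcagcctcattctAatttat
Counted from 1 at the 5′ end, with the Ugt2b5 base first, the differences are C4T, A5G and T24A. The 2 probes of Ugt2b37 overlap by 55 bases and so are not independent of each other. The longest run that any of the 21 shared with a probe outside the 10 genes was 17 bases. Only the other probes of the array were searched, so binding to other transcripts was not tested.

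Signals are given as log2 of the processed intensity relative to the array's 75th percentile, and differences as oxaliplatin minus control. Errors of differences are SE and those of group levels SD, with n = 4 arrays per group. A probe was called when its p from limma, adjusted over all 54636 probes tested, was under 0.05. Between 27.2% and 40.9% of non-control probes were well above background on an array. With 1 slide for each group, slide effects and group effects cannot be told apart. The files give oxaliplatin replicates 1 and 2 a run name of their own, and the other 6 arrays share 1. Before any direction is read, a point on the labels is needed: Cdkn1a and Phlda3, genes that p53 switches on after DNA damage, were lower on the arrays labelled oxaliplatin. Cdkn1a read 3.65, 1.43, 1.08 and 0.54 on the oxaliplatin arrays, against 4.66, 5.10, 5.04 and 6.33 on the control arrays (difference -3.61 ± 0.65, limma adjusted p = 0.0104). Phlda3 differed by -3.57 ± 0.17 (limma adjusted p = 0.000543). All directions here follow the labels, and whether labels were exchanged was not tested.

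Of the 21 probes 5 were called, all 5 higher on the arrays labelled oxaliplatin, and 16 were not called. Under normexp 7 were called (5 higher, 2 lower), and under median centring 10 (3 higher, 7 lower). The balance of directions thus depends on background correction and scaling. That median was taken over all non-control probes, of which at most 40.9% on an array were well above background. The 5 probes called as reported belong to 4 genes: both probes of Ugt2b1, the custom probe of Ugt2b38, the catalogue probe of Ugt2b5 and that of Ugt3a1. The share called, 23.8%, is close to the 18.4% of all tested probes, of which 7.42% were higher and 11.0% lower. The median difference of the 21 probes was 0.28, against -0.094 for all probes tested. In 18 of the 21 probes the difference was under 2-fold, and the other 3 were both probes of Ugt2b1 and the custom probe of Ugt2b38. The count of called member probes was 1 without control replicate 1, without any 1 of oxaliplatin replicates 2, 3 and 4, or with the run name accounted for, 2 without control replicate 3 and 3 without control replicate 4. In whole liver, fewer cells of a type and less RNA per cell cannot be told apart.

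**Figure D1:**
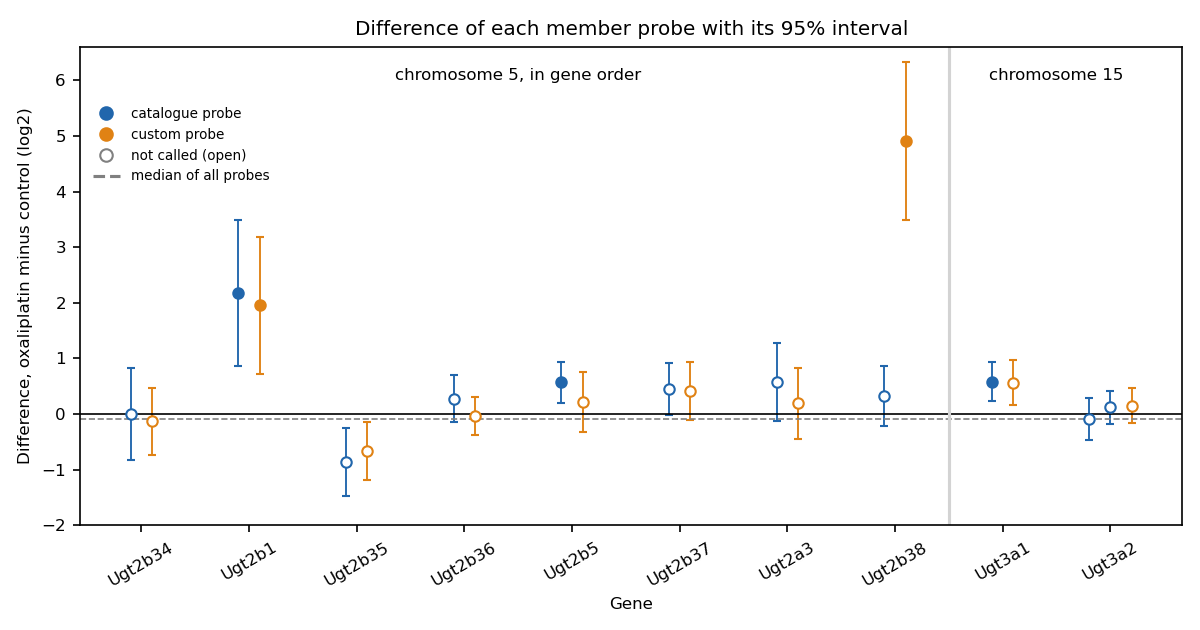
Difference between the group means, oxaliplatin minus control, on the log2 scale for each of the 21 probes, with the 95% interval from the fit, by gene in chromosome order; filled points were called and open points were not. The custom probe of Ugt2b38 (4.91) and both probes of Ugt2b1 (2.18 and 1.95) stand apart from the rest, and the dashed line marks the median of all probes tested (-0.094).

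Ugt2b38, an enzyme of the Ugt2b group at the end of the chromosome 5 row, had the widest difference of the 21 probes on its custom probe, a rank that rests on control signals near background. This probe read 2.17, 1.83, 2.48 and 2.35 on the oxaliplatin arrays, against -2.77, -0.62, -3.77 and -3.66 on the control arrays. It was well above background on 4 of 4 oxaliplatin arrays and on 1 of 4 control arrays, so it passed the filter through the oxaliplatin group, and the groups did not overlap. The fitted difference was 4.91 ± 0.62 (limma adjusted p = 0.004), but 3 of its 4 control values are not well above background and its size is not a measured fold. With each control value raised to the lowest signal well above background on its array, the probe was 13.7-fold higher on the oxaliplatin arrays at this scaling. The flag is set spot by spot, so this is an estimate without an error and not a strict lower limit. The call held under all 20 alternatives that tested this probe, which did not pass the filter on all 8 arrays. Its difference was 1.90 after normexp background correction with an offset of 50, against 1.90 and 1.86 for the Ugt2b1 probes. That offset is near the arrays' 75th percentile (43.3 to 53.5) and narrows differences of dim probes most, so this setting cannot rank the genes. On the 6 arrays that share a run name the difference of the custom Ugt2b38 probe was 5.12 (limma adjusted p = 0.0301). Its other probe, the one listed for Ugt2b37, Ugt2b38 and Ugt2b5, read 7.20, 7.14, 7.47 and 7.42 on the oxaliplatin arrays, against 6.82, 6.998, 7.66 and 6.47 on the control arrays. There the groups overlapped, and the difference was 0.32 ± 0.23 (limma adjusted p = 0.352).

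Ugt2b1, another enzyme of the Ugt2b group, rose on both of its probes. Its catalogue probe read 5.98, 7.05, 7.11 and 7.38 on the oxaliplatin arrays, against 5.15, 5.63, 5.13 and 2.88 on the control arrays. On the custom probe the values were 8.37, 9.39, 9.40 and 9.67 on the oxaliplatin arrays, against 7.65, 8.12, 7.70 and 5.54 on the control arrays. The groups did not overlap on either probe, oxaliplatin replicate 1 was the lowest of its group, and control replicate 4 was far below the other control arrays. The differences were 2.18 ± 0.58 (4.54-fold, 95% interval 1.83 to 11.3, limma adjusted p = 0.0339) and 1.95 ± 0.54 (3.88-fold, limma adjusted p = 0.0393). Without control replicate 4 they were 1.58 and 1.38, and both calls remained. Both calls ended under 8 alternatives, among them leaving out control replicate 1 or 3 or oxaliplatin replicate 2, 3 or 4 and both fits that account for the run name, with differences of 1.33 to 2.55 over all alternatives. On the 6 arrays that share a run name they were 2.55 and 2.28 (limma adjusted p = 0.0870 and 0.0963).

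**Figure D2:**
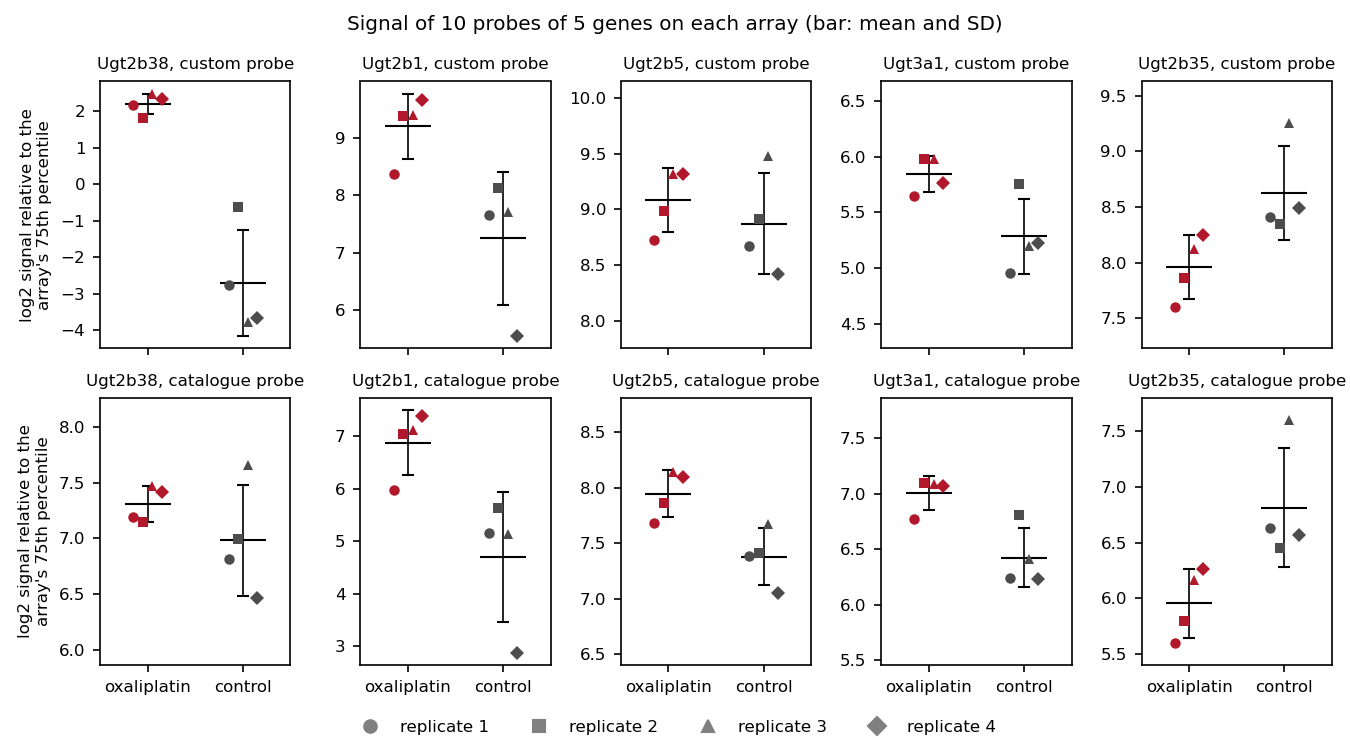
Signal of 10 probes of 5 genes on each array, on the log2 scale relative to the array's 75th percentile; oxaliplatin arrays are red and control arrays grey, symbols mark the replicate numbers, and bars give the mean and SD of 4 arrays. The custom probe of Ugt2b38 (1.83 to 2.48 on oxaliplatin arrays, -3.77 to -0.62 on control arrays) and both Ugt2b1 probes separate the groups upward, and both Ugt2b35 probes separate them downward without passing the test; axes differ between panels.

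Among the genes with small differences, Ugt2b5 and Ugt3a1 had 1 called probe each. The Ugt2b5 catalogue probe read 7.69, 7.86, 8.14 and 8.10 on the oxaliplatin arrays, against 7.39, 7.41, 7.67 and 7.05 on the control arrays, a difference of 0.57 ± 0.16 (limma adjusted p = 0.044). The groups did not overlap, although oxaliplatin replicate 1 and control replicate 3 lay side by side. Its custom probe read 8.73, 8.99, 9.32 and 9.32 on the oxaliplatin arrays, against 8.67, 8.92, 9.48 and 8.42 on the control arrays, and the groups overlapped. There the difference of 0.21 ± 0.24 was not called (limma adjusted p = 0.552). Ugt3a1, whose human counterpart uses UDP-N-acetylglucosamine, read 6.78, 7.09, 7.09 and 7.07 on the oxaliplatin arrays of its catalogue probe, against 6.24, 6.81, 6.41 and 6.24 on the control arrays. Its difference was 0.58 ± 0.16 (limma adjusted p = 0.0347), although control replicate 2 lay above oxaliplatin replicate 1. The custom probe of Ugt3a1 read 5.65, 5.98, 5.98 and 5.77 on the oxaliplatin arrays, against 4.95, 5.76, 5.20 and 5.22 on the control arrays. It differed by 0.56 ± 0.18 and missed the threshold (limma adjusted p = 0.0599). The calls of Ugt2b5 and Ugt3a1 each ended under 11 of the alternatives, among them centring each array on its median, where the differences were -0.060 and -0.045. On the 6 arrays that share a run name they were 0.74 and 0.66 (limma adjusted p = 0.0705 and 0.0958).

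Ugt2b35 was the gene with lower signals on both probes, and neither passed the test. Its catalogue probe read 5.59, 5.79, 6.16 and 6.26 on the oxaliplatin arrays, against 6.63, 6.45, 7.60 and 6.57 on the control arrays. The custom probe read 7.60, 7.86, 8.12 and 8.25 on the oxaliplatin arrays, against 8.41, 8.35, 9.25 and 8.50 on the control arrays. The groups did not overlap on either probe, and control replicate 3 was the highest by a wide gap on both. The differences were -0.86 ± 0.27 and -0.67 ± 0.23 (limma adjusted p = 0.0564 and 0.0734). Both probes were called lower after normexp (-0.93 and -0.71, limma adjusted p = 0.0288 and 0.0396) and after median centring, and the catalogue probe also with the filter on all 8 arrays and with an intensity trend. Without control replicate 3 the differences were -0.60 and -0.46 (limma adjusted p = 0.0797 and 0.127). On the 6 arrays that share a run name they were -0.60 and -0.44 (limma adjusted p = 0.281 and 0.334). In all, 6 of the 21 probes (28.6%) had groups that did not overlap, against 27.0% of all probes tested.

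The other 5 genes had no called probe. Ugt2b37, next to Ugt2b5 in the row, read 7.43, 7.59, 8.02 and 7.97 on the oxaliplatin arrays of its catalogue probe, against 7.36, 7.32, 7.68 and 6.84 on the control arrays. Its differences were 0.45 ± 0.21 and 0.41 ± 0.23 on 2 probes that overlap in sequence (limma adjusted p = 0.151 and 0.233). The lowest value on both probes was control replicate 4, and the groups overlapped. Ugt2a3, the single Ugt2a gene here, whose human counterpart conjugates bile acids, read 6.65, 7.20, 7.54 and 7.60 on the oxaliplatin arrays of its catalogue probe, against 7.04, 6.83, 6.98 and 5.84 on the control arrays. It differed by 0.58 ± 0.31 there and by 0.19 ± 0.28 on the custom probe (limma adjusted p = 0.211 and 0.662). Here too control replicate 4 was low and oxaliplatin replicate 1 lay below 3 of the control arrays.

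Ugt2b36 read 8.05, 8.14, 8.40 and 8.42 on the oxaliplatin arrays of the probe it shares with Ugt2b37, against 7.76, 8.03, 8.43 and 7.67 on the control arrays. On its custom probe the values were 9.29, 9.53, 9.67 and 9.66 on the oxaliplatin arrays, against 9.57, 9.51, 9.90 and 9.33 on the control arrays. The groups overlapped on both, with differences of 0.28 ± 0.18 and -0.039 ± 0.15 (limma adjusted p = 0.310 and 0.877). Ugt2b34, the first gene of the row, read 7.68, 8.20, 8.37 and 8.38 on the oxaliplatin arrays of its custom probe, against 8.30, 8.48, 8.78 and 7.60 on the control arrays. Control replicates 3 and 4 were the highest and the lowest of all 8 there, and its catalogue and custom probes had differences of 0.0052 ± 0.36 and -0.13 ± 0.26 (limma adjusted p = 0.994 and 0.751). Its 95% intervals reached -0.82 to 0.83 and -0.73 to 0.47, so differences of the size seen for Ugt2b5 and Ugt3a1 lie within at least 1 of them. The custom probe of Ugt3a2 read 8.78, 9.13, 9.11 and 9.13 on the oxaliplatin arrays, against 8.81, 9.07, 9.03 and 8.66 on the control arrays, a narrow span in both groups. The 3 probes of Ugt3a2, whose human counterpart uses UDP-glucose and UDP-xylose, differed by 0.15 ± 0.14, 0.12 ± 0.13 and -0.087 ± 0.17 (limma adjusted p of 0.469, 0.542 and 0.739). The intervals of its 3 probes together ran from -0.47 to 0.46, which is less than a 2-fold difference either way.

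Probes of 1 gene were then set against each other by their gap within each array, in 12 pairs. The gap differed between the groups without overlap in 7 of the 12, each with the smallest p that 70 splits of the arrays allow (two-sided exact permutation p = 0.0286, adjusted over the 12 pairs 0.049). By far the widest was Ugt2b38, whose catalogue probe moved 4.59 less than its custom probe, again against control signals mostly not well above background. After normexp with an offset of 50, which narrows the dim custom probe most, the differences of these probes were 0.21 and 1.90. The other 6 were smaller: 0.23 for Ugt2b1, -0.20 for Ugt2b35, 0.32 for Ugt2b36, 0.35 for Ugt2b5, 0.39 for Ugt2a3, and -0.24 for 1 pair of Ugt3a2, each as the catalogue probe's difference minus the custom probe's. The other 5 pairs did not pass. Among the pairs that passed, the catalogue probe gave the higher difference for Ugt2b1, Ugt2b36, Ugt2b5 and Ugt2a3, and the lower for Ugt2b38, Ugt2b35 and Ugt3a2. The 2 probes of Ugt3a1 gave differences within 0.020 of each other.

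Some arrays ran low or high across the family. Oxaliplatin replicate 1 was the lowest of its group in 19 of the 21 probes, where it was lowest in 35.7% of all tested probes. Control replicate 4 was the lowest of its group in 17 of the 21, against 35.0% of all tested probes. Their median deviations from the group mean were -0.33 and -0.45 over the 21 probes, against -0.029 and -0.013 over all tested probes. Such an order was also seen outside the family. Both arrays were the lowest of their groups for Rgn, Slco1b2 and Ttr, listed genes described below, but for Hnf4a both were the highest. How far other hepatocyte genes share it was not tested. Control replicate 3 was the highest of its group in 12 of the 21, with a median deviation of 0.43 against 0.041 over all tested probes. Leaving out control replicate 4 brought the called member probes to 3, leaving out control replicate 3 to 2, and leaving out oxaliplatin replicate 1 gave 5.

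**Figure D3:**
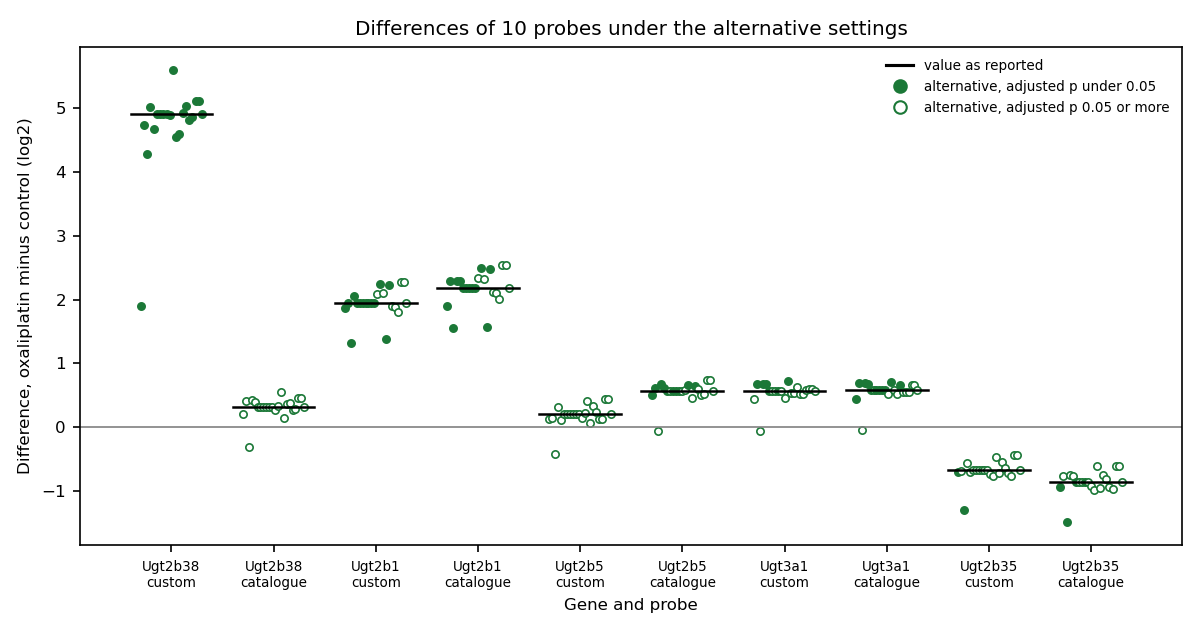
Difference, oxaliplatin minus control on the log2 scale, of 10 probes under each alternative setting; black bars mark the values as reported, filled points had an adjusted p under 0.05 and open points did not. The custom probe of Ugt2b38 is filled under every setting that tested it, from 1.90 to 5.61, while Ugt2b5 and Ugt3a1 cross 0 under 1 setting.

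Promoter letters were available for 9 of the 10 genes from RefSeq (GRCm38.p6). In 8 of the 9 the 250 bases before the start hold the letters GTTANNNNTTAAC, searched on both strands, which resemble the site of the liver factor HNF1. This is 1 of 2 words of 4 letters, 4 free bases and 5 letters that 8 of the 9 promoters share, the most for any such word, and both the form and the word were picked from these promoters, so the count is a description. The same letters are in 56 of 32851 promoters (0.17%). The match starts between 61 and 130 bases before the start and is shown in capitals for Ugt2b38 and Ugt2b1, the genes of the probes that differed most, and for Ugt2b37 and Ugt2b35, which were not called.
Ugt2b38, chr5:87424245-87424277, minus strand: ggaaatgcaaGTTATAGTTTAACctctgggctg
Ugt2b37, chr5:87254844-87254876, minus strand: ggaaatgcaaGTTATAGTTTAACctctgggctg
Ugt2b1, chr5:86926570-86926602, minus strand: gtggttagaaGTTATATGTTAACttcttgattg
Ugt2b35, chr5:87000780-87000812, plus strand: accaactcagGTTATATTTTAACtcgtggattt
The windows of Ugt2b38 and Ugt2b37 are the same over these 33 bases, and over 250 bases they share 224 identical positions. Ugt2b5 shares 212 with Ugt2b38, and the 33 pairs other than those among these 3 genes share 121 to 161. Side by side, the signal difference was 4.91 on the custom probe of Ugt2b38 and 0.41 on that of Ugt2b37. The first rests on control signals mostly not well above background and is not a measured fold. The other Ugt2b38 probe, listed also for Ugt2b37 and Ugt2b5, differed by 0.32. The Ugt2a3 window does not hold these letters, which says nothing of the factor there.

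The genes around the reaction were read from 5 lists with 54 genes, 45 of them tested by their brightest probe. Of these 1 was higher, 8 were lower and 36 were not called, a share of 20% called against 17.4% of all named genes, of which 6.80% were higher and 10.5% lower. The split depended on scaling: it was 5 higher and 5 lower after quantile normalization and with the percentile over detected probes, and 3 higher and 5 lower in the series matrix values. The median over the 45 was 0.074, against -0.087 over all named genes. Among 12 genes of UDP-sugar supply 1 was called, Slc35d1, a carrier of UDP-glucuronic acid into the endoplasmic reticulum, at -0.54 ± 0.15 (limma adjusted p = 0.043). Pgm1, which makes glucose 1-phosphate, differed by -0.28 ± 0.14 without passing. Of the relatives outside the 10 genes, 4 were tested and none was called at an adjusted p under 0.05 with limma, Ugt1a1, the bilirubin-conjugating enzyme, at 0.15 ± 0.10. A dimmer Ugt1a1 probe was called the other way, at -0.59 (limma adjusted p = 0.0132). The brightest probe of its relative Ugt1a6b differed by 0.16 ± 0.10, much as that of Ugt1a1. Whether the Ugt1a probes separate these genes was not tested. In hydrolysis and glucuronate use 1 of 8 was called, Dcxr, a xylulose reductase, at -0.60 ± 0.16, and Rgn, a gluconolactonase, was not (0.16 ± 0.28).

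Transport had the most calls, 5 of 7, in a short list chosen with earlier results known, where 17.4% of all named genes were called. Slco1a1, an uptake carrier of organic anions known to be higher in male mouse liver, read 6.63, 7.004, 7.46 and 7.45 on the oxaliplatin arrays, against 0.65, 4.14, 1.99 and -2.05 on the control arrays. Its groups did not overlap, and the difference was 5.95 ± 1.09 (limma adjusted p = 0.011), or 4.88 without control replicate 4. The exporters Abcc2, Abcc3 and Abcc4, which pump glucuronides into bile or blood, were lower, at -0.85 ± 0.19, -0.71 ± 0.18 and -0.99 ± 0.28. Slco1a4, an uptake carrier, was lower at -1.17 ± 0.34, and Slco1b2 was not called (0.20 ± 0.23). The list's median was -0.71, and a second Abcc4 probe differed by 0.21, the other way. A second Abcc2 probe differed by -0.43 and was not called (limma adjusted p = 0.0909), and the dimmer probes of Abcc3 and Slco1a4 were called lower.

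Of 14 regulators 2 were called by their brightest probe, both lower. Cux2, a repressor known to be expressed in female mouse liver, read 2.18, 1.56, 1.94 and 1.25 on the oxaliplatin arrays, against 3.80, 3.20, 3.54 and 3.97 on the control arrays (difference -1.89 ± 0.24, limma adjusted p = 0.004). The groups were apart by more than their spread, and this call held under all 22 alternatives. Nr1i3, the xenobiotic receptor CAR, was lower by -0.88 ± 0.16. Hnf4a, a hepatocyte master factor, was not called (0.094 ± 0.14). Among dimmer probes of other regulators limma called Foxa1 higher (1.45), Rxra (-0.61) and Ahr (-0.59) lower, and Nfe2l2 both ways (0.58 and -1.77). Of the other called genes of the 5 lists, Slco1a1 and Nr1i3 each lost the call under 1 alternative, the 6 arrays of 1 run name, and the other 6 lost it under 6 (Abcc2) to 14 (Slc35d1) of 22. The 9 called genes became 3 without control replicate 3 or oxaliplatin replicate 3, 4 without oxaliplatin replicate 4 and 5 without oxaliplatin replicate 1.

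**Figure D4:**
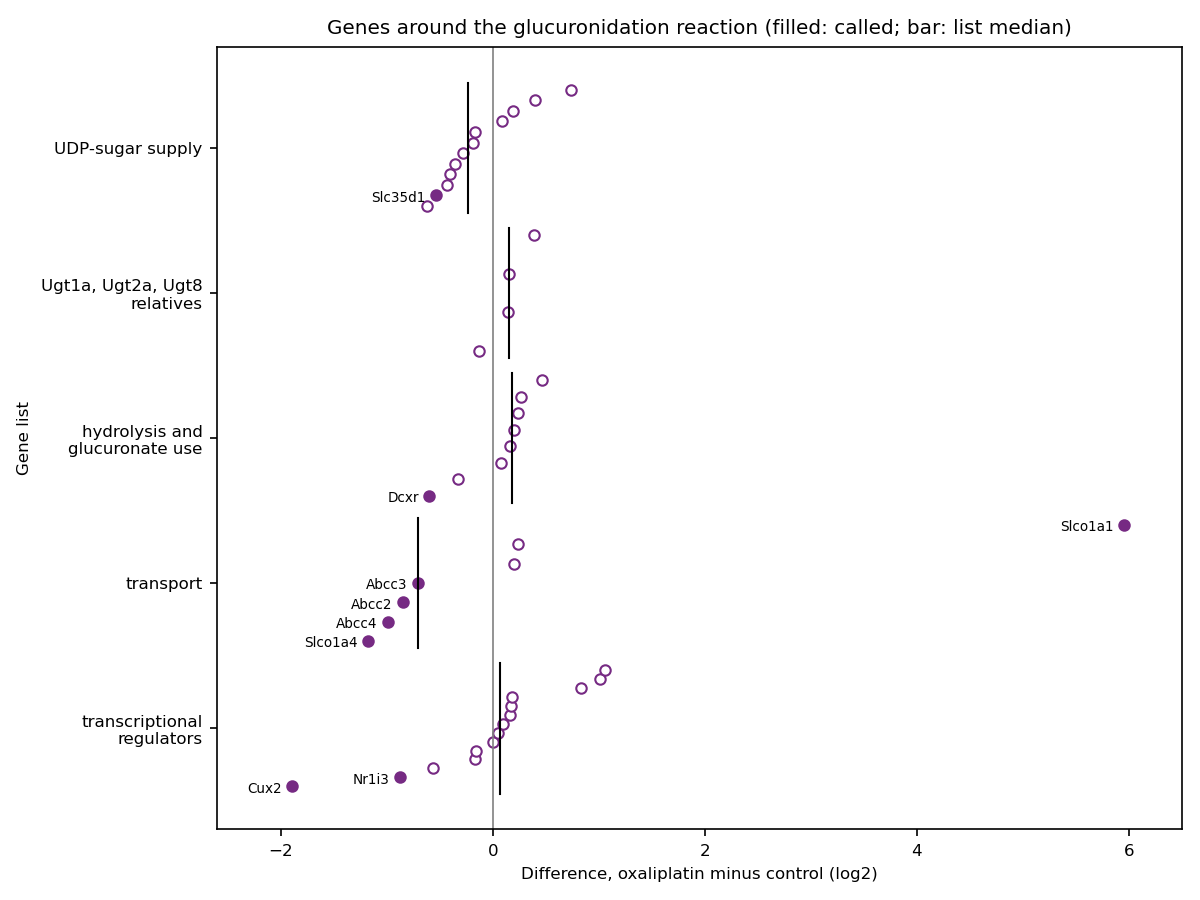
Difference, oxaliplatin minus control on the log2 scale, of the 45 tested genes of the 5 lists; each point is 1 gene, filled points were called, and bars give the list medians. Slco1a1 (5.95, well above background on 3 of 4 control arrays) lies far to the right. The 8 called genes left of 0 include 4 carriers and Cux2 (-1.89).

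Liver identity was checked by markers. Of 10 hepatocyte markers, genes of the cell that holds most of these enzymes, 3 were higher, none lower and 7 not called: Alb 0.56 ± 0.10, Ttr 1.29 ± 0.36 and Serpina1a 0.38 ± 0.11, of which Alb and Serpina1a were at -0.070 and -0.25 after median centring. The Ttr call ended under 9 alternatives and that of Serpina1a under 14, and dimmer probes of Tat (-0.71) and Hpd (-0.38) were called lower and 1 of Apob (0.56) higher. Their summed level was 13.25 to 13.43 on the oxaliplatin arrays, against 13.12 to 13.20 on the control arrays, and its part in the differences of the Ugt genes was not tested. All 4 erythroid genes were called, 3 of 4 higher (Alas2 2.39, Hbb-bs 1.94 and Hba-a1 1.58) and Klf1 lower at -0.61, and the call of Hba-a1 ended under 13 alternatives. Their summed level was 10.6 to 11.4 on the oxaliplatin arrays, against 8.49 to 10.5 on the control arrays. In the other lists 1 of 7 sinusoidal endothelial genes was lower (Lyve1, -1.49). So were 1 of 6 Kupffer genes (Marco, -2.26) and 1 of 6 stellate genes (Dcn, -0.39). These calls ended under 2 alternatives for Lyve1, 9 for Marco and 13 for Dcn. Dimmer probes of endothelial Clec4g (0.59) and stellate Col1a1 (1.57) were called higher, and dimmer probes of Lyve1, Marco and Dcn were called lower. The other 5 Kupffer genes had differences of 0.36 to 0.67, none of them called at a limma adjusted p under 0.05, and the list's median was 0.50. Among 5 cholangiocyte and 2 kidney genes tested none was called by limma at an adjusted p under 0.05. Of 4 lymphocyte genes Cd3e was higher (0.67). Lct was higher (3.01) and Apoa4 lower (-1.35) among 3 intestinal genes, and Pnlip was higher (1.66) among 3 of pancreas. Cela1, Ctrb1 and Pnlip of pancreas, Fabp2, Lct and Apoa4 of intestine and Aqp2 of kidney were well above background on all 8 arrays. Other markers of these organs, Umod, Slc34a1 and Slc12a1 of kidney, Muc2 and Cdh17 of intestine and Cpa1 of pancreas, were well above background on no array.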

How the data were processed

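Total liver RNA was labelled with Cy3. Image analysis used Feature Extraction 12.0.3.1 per the file headers; version 10.7 of Agilent Feature Extraction and limma stand in the submitters' processing notes. The deposited processed signal is a linear intensity from which that software had subtracted background, with no scaling between arrays. Deposited alongside are the mean spot signal and its background, also as intensity, and flags mark spots well above background, saturated or outlying. The deposited series matrix holds log2 values of 46867 probes, whose normalization is not given in the sources used here.

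Log2 signals were set relative to each array's 75th percentile over 149782 non-control probes, outlier spots were dropped, and the 54636 probes well above background on at least 4 of 8 arrays were fitted with limma 3.58.1 in R 4.3.3 and adjusted after Benjamini-Hochberg; 6 residual and 2.76 prior degrees of freedom stood behind each test. Each probe was fitted on its own. The step was tested on simulated data with 200 changed probes. Probes were named through RefSeq (GRCm38.p6), used for names and gene order. Of 48257 probes with a RefSeq accession 47985 were matched. Promoter sequences are RefSeq's. Alternatives covered background correction, scaling, filter, variance model, gene-level fit, arrays left out, run name and replicate block. Listed genes were named if called (at most 6 per list), with the brightest uncalled gene of each. A few listed marker genes are not reported here. Members and lists were chosen with earlier results of these data known. The number of arrays limits the precision.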

Additional observations from a re-analysis of the deposited data

Results flagged for a closer look

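Within the groups of 4, the array farthest from the others was set against the group's whole range (Dixon's test at 95%). Of 98 groups over 49 probes 10 stood out, where chance gives about 1 in 20. Control replicate 3 was high for both Ugt2b35 probes, at 7.60 on the catalogue probe (other control arrays 6.45 to 6.63) and at 9.25 on the custom probe (8.35 to 8.50). Oxaliplatin replicate 1 was low for the Ugt3a1 catalogue probe at 6.78 (other oxaliplatin arrays 7.07 to 7.09), for the Ugt3a2 custom probe at 8.78 (9.11 to 9.13) and for Ttr at 6.51 (7.18 to 7.24). Control replicate 4 was low for Ugt1a1 at 9.63, and control replicate 1 for Hnf4a at 8.84. Oxaliplatin replicate 4 was high for Alb at 11.3. Klf1 had an array apart in each group, oxaliplatin replicate 3 at 3.14 and control replicate 2 at 3.74.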

How the results depend on the processing

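Of the 5 called member probes the custom probe of Ugt2b38 kept its call under every alternative that tested it, and 4 lost it under some. Over all probes 10065 were called. The count was 38713 after centring on the median (2.14% of them higher, against 40.3%), 4448 in the series matrix, 22077 without the filter (82.7% higher), 2590 in the gene-level fit, 2810 on the 6 arrays of 1 run name, 3255 with the run name as a covariate, 3815 with the replicate block, and 4804 to 8537 with 1 array left out. The share higher was 25.0% after normexp and 61.7% with the percentile over detected probes, which moved the median of all probes by 0.11. Centring each array on the median of its non-control probes, most of them not well above background, moved it by -0.63. Member probes called were 10 after median centring (3 higher, 7 lower), 3 without the filter, 2 of 10 genes in the gene-level fit, 1 under both run-name fits and under the replicate block, and 1 to 5 with 1 array left out. Genes of the 5 lists called were 29 after median centring, 4 without the filter, 2 on 1 run name, 5 with the covariate, 5 with the replicate block, and 3 to 9 with 1 array left out. The replicate numbers do not pair the samples: same-numbered arrays correlated at -0.22, 0.02, -0.08 and -0.16 over 54592 probes.

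Signs changed under median centring for Ugt2b34 (catalogue, -0.62), Ugt2b36 (catalogue, -0.35), Ugt2b5 (catalogue -0.060, custom -0.41), Ugt2b37 (-0.18, -0.22), Ugt2a3 (-0.051, -0.44), Ugt2b38 (catalogue, -0.30), Ugt3a1 (-0.045, -0.065), Ugt3a2 (-0.51, -0.48), Ugt1a1 (-0.48), Rgn (-0.46), Slco1b2 (-0.43), Hnf4a (-0.53), Alb (-0.070) and Serpina1a (-0.25). After normexp Ugt2b34 was at -0.037, Ugt1a1 at -0.11 and Slco1b2 at -0.062. Quantile normalization gave Ugt1a1 -0.043, Rgn -0.035 and Hnf4a -0.023, and the series matrix gave them -0.041, -0.033 and -0.015. The percentile over detected probes gave the custom probe of Ugt2b36 0.071 and a catalogue probe of Ugt3a2 0.023. In both run-name fits the custom probes of Ugt2b34 and Ugt2b36 were at 0.085 and 0.088, and that Ugt3a2 probe at 0.012. With 1 array left out the ranges crossed 0 for Ugt2b34 (catalogue -0.31 to 0.25, custom -0.36 to 0.033), Ugt2b36 (custom, -0.12 to 0.067), Ugt2a3 (custom, -0.021 to 0.40), Ugt3a2 (-0.17 to 0.035), Rgn (-0.13 to 0.33), Slco1b2 (-0.018 to 0.33) and Hnf4a (-0.027 to 0.15). Of these results Ugt2b5 and Ugt3a1 (catalogue probes), Alb and Serpina1a were called as reported and the others were not, and the cause was not tested.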
